A study of Mus musculus with 7 samples.

Results

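The 10 genes known as markers of meningeal fibroblasts were followed through bulk RNA-seq of mouse motor cortex: the collagen genes Col1a1, Col1a2 and Col3a1, the small leucine-rich proteoglycan genes Dcn, Lum, Ogn and Fmod, the growth factor gene Igf2, the retinoic acid enzyme gene Aldh1a2 and the transporter gene Slc6a13. They were picked by name as known markers, with earlier results of these data already known. All 10 were found among the 54532 genes of the deposited tables, and all 10 passed the filter on low counts that left 16308 genes for testing. The study asked what changes in the motor cortex of a C9orf72 poly-GA mouse model when a gene is deleted conditionally; its title names TIA1 stress granules and HSP70 mRNA. There were 4 libraries labelled cKO (conditional knockout) and 3 libraries labelled WT. Every mouse of both groups had received GA100 virus in both lateral ventricles on postnatal day 0 and was sampled 3 months after the injection, once behaviour had been tested, so the WT libraries are not from uninjected mice. The labels used here name neither the deleted gene nor a Cre driver, and do not say how many mice each library holds, whether meninges were removed, or which sex the mice were.

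The meninges wrap the brain in layers of dura, arachnoid and pia, and the pia lies directly on the cortical surface that a dissection cuts. Their fibroblasts secrete a fibrillar collagen matrix and the proteoglycans that space and bind its fibrils, and they supply growth factors and retinoic acid to the developing cortex below. Cortical neurons and glia make little of this matrix, so transcripts of these genes in a cortical sample are usually traced to the surface layers and to fibroblasts that follow the larger vessels. None of the 10 genes is exclusive to meninges.

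Library totals were 15181390 to 16403202 counts in cKO and 15213977 to 16463721 in WT, so depth was alike. Levels are CPM, read counts divided by the library size after scaling by the trimmed mean of M values (TMM). Markers of cortical neurons were present in every library: Slc17a7, the vesicular glutamate transporter of cortical excitatory neurons, measured 987 to 1111 CPM in cKO and 1109 to 1473 CPM in WT. Tia1, the gene that the study's title names, measured 81.4, 80.3, 72.7 and 81.9 CPM in cKO replicates 1 to 4, against 60.6, 95.8 and 68.9 CPM in WT replicates 1 to 3, a log2 fold change of 0.07 ± 0.13 (SE; adjusted p = 0.914, edgeR quasi-likelihood test). Its gene-level count thus did not separate the groups and gives no check of the genotype labels; cKO and WT below mean the libraries so labelled. In cKO replicate 3 a set of genes known from the olfactory bulb, picked after their values were seen, stood far above the other libraries: Cdhr1 measured 103 CPM there and 1.06 to 2.53 CPM in the other 6, and Th, tyrosine hydroxylase, measured 19.8 CPM there and 1.19 to 2.84 CPM in the other 6. That library therefore differs in more than the matrix genes. The summed group mean of the 10 genes is given with and without that library. Fold changes are given from all 7 libraries and with that library and WT replicate 1 left out together. For Ogn and for the median of the 10 genes, they are also given with only that library left out. Library orders, list deviations and the ranking of similar genes use all 7 libraries.

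The sequence before the transcription start is shown for the 4 genes with a single RefSeq start within 50 bases of the deposited gene start. Each window is the 250 bases before the RefSeq start on GRCm38.p6, 5′ to 3′, with matches to TATAAA or CCAAT on either strand in capitals.
Col3a1 (chr1:45311288-45311537, plus strand): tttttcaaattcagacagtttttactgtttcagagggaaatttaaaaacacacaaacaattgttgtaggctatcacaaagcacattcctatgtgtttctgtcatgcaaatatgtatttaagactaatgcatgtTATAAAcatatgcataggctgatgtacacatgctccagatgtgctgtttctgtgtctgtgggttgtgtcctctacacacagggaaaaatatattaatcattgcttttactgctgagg
Ogn (chr13:49607765-49608014, plus strand): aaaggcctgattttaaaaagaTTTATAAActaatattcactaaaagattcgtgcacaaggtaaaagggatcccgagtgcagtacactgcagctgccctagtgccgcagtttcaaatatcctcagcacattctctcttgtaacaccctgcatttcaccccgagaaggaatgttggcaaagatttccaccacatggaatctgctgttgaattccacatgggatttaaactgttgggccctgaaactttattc
Fmod (chr1:134037004-134037253, plus strand): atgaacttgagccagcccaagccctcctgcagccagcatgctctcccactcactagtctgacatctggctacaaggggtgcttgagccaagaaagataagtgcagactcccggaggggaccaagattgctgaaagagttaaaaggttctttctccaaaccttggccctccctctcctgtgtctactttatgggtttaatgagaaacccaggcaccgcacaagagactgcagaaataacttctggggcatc
Aldh1a2 (chr9:71215539-71215788, plus strand): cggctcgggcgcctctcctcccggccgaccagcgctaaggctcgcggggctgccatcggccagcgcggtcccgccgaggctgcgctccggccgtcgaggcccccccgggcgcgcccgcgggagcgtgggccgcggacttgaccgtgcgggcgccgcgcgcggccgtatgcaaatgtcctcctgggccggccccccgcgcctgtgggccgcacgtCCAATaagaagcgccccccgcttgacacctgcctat
The Col3a1 window held 1 TATAAA match, and the Ogn window held 2 that overlap on opposite strands. The Aldh1a2 window held 1 CCAAT match, at -36, and the Fmod window held neither motif. TATAAA occurs on either strand in 12.4% and CCAAT in 33.8% of 32851 RefSeq windows of this length. GGGCGG, the core of the GC box, matched in none of the 4 windows and in 32.7% of all windows. The E-box pattern CANNTG, left in lower case, matched 4 times in Col3a1, 3 times in Ogn, 1 time in Fmod and 2 times in Aldh1a2, and is present in 66.2% of all windows. GC content was 35.2% for Col3a1, 42.0% for Ogn, 51.2% for Fmod and 77.6% for Aldh1a2, against a median of 52.4% over all windows. These 4 windows thus share no searched motif other than the common E-box pattern and span a wide range of base composition. Whether the windows bear on the levels in the libraries was not tested.

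The summed level of the 10 genes ranged widely between single libraries of each group. Summed over the 10 genes, cKO replicates 1 to 4 measured 49.98, 53.4, 129 and 71.8 CPM, against 118, 63.9 and 47.0 CPM in WT replicates 1 to 3. One library of each group, cKO replicate 3 and WT replicate 1, therefore held far more of these transcripts than the other 5, and the groups overlapped over nearly their whole range. The highest library exceeded the lowest, WT replicate 3, by 2.75 times (95% counting interval 2.52 to 3.0). The interval for cKO replicate 3 was 123 to 135 CPM and that for WT replicate 1 was 113 to 124 CPM, with 1908 and 1933 counts behind them. These intervals cover counting error only, since PCR copies cannot be told from separate molecules. In bulk tissue, fewer fibroblasts and less RNA per fibroblast cannot be told apart.

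**Figure D1:**
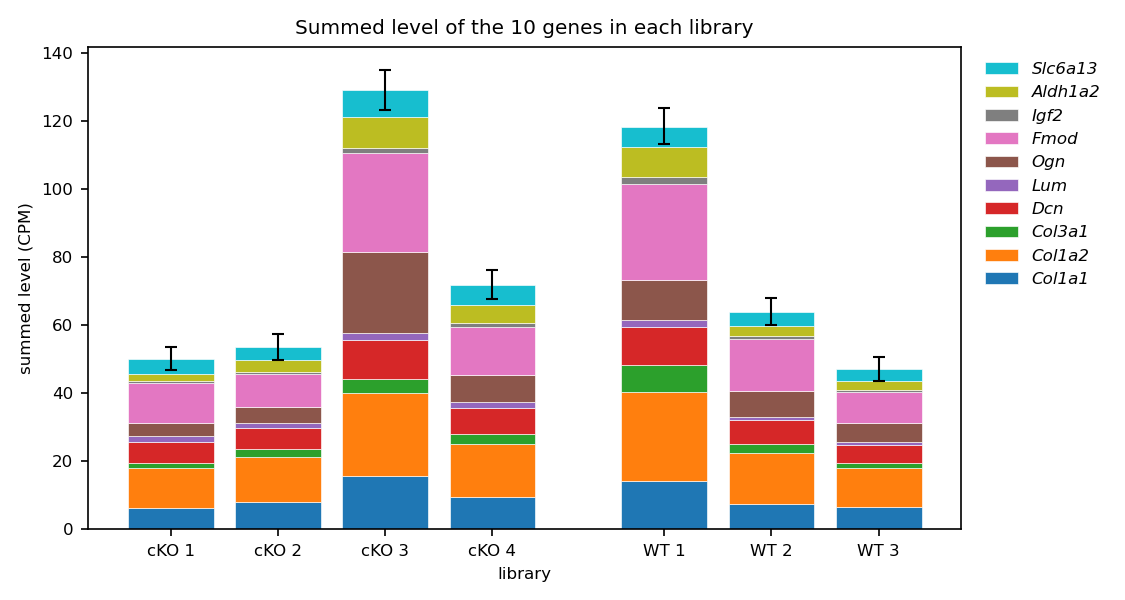
Summed level of the 10 genes in CPM (vertical axis) in each of the 7 libraries, stacked by gene, with 95% counting intervals as error bars. cKO replicate 3 reaches 129 CPM and WT replicate 1 reaches 118 CPM, and the other 5 libraries lie between 47.0 and 71.8 CPM.

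The order of libraries was shared by nearly all of the genes. cKO replicate 3 and WT replicate 1 were the 2 highest libraries for 9 of the 10 genes, all but Slc6a13. Over all tested genes this pair was the top 2 for 6.42%. The pair was taken from the summed level of these same 10 genes. The count therefore describes their pattern and is no test of it. Below the top pair, cKO replicate 4 was above cKO replicates 1 and 2 in 9 genes, and WT replicate 2 was above WT replicate 3 in 9 genes. The lowest library was cKO replicate 1 for 4 genes, WT replicate 3 for 4 genes, cKO replicate 2 for 1 gene and WT replicate 2 for 1 gene. Measured as the mean deviation of log2 CPM from each gene's own mean, the libraries stood at -0.49, -0.35, 0.78 and 0.09 in cKO replicates 1 to 4 and at 0.76, -0.22 and -0.56 in WT replicates 1 to 3. All 10 genes were above their own mean in cKO replicate 3 and all 10 in WT replicate 1, but 0 of them in WT replicate 3.

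Col1a1 and Col1a2 encode the chains of type I collagen, the main fibrillar collagen of the meninges. Col1a1 (chr11:94936224-94953042) measured 6.15, 7.92, 15.5 and 9.40 CPM in cKO replicates 1 to 4, against 14.1, 7.41 and 6.41 CPM in WT replicates 1 to 3. Col1a2 (chr6:4504814-4541544) measured 11.9, 13.4, 24.5 and 15.7 CPM in cKO, against 26.3, 14.9 and 11.4 CPM in WT. Both were high in cKO replicate 3 and WT replicate 1, and their groups overlapped. The highest library exceeded the lowest by 2.52 times for Col1a1 and 2.3 times for Col1a2.

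Col3a1 (chr1:45311538-45349706) encodes type III collagen, which forms mixed fibrils with type I. It measured 1.39, 2.26, 4.13 and 2.88 CPM in cKO, against 7.77, 2.59 and 1.58 CPM in WT. WT replicate 1 stood alone at the top here: the ratio of cKO replicate 3 to WT replicate 1 was 0.531 (95% counting interval 0.385 to 0.726), whereas for Col1a1 it was 1.10 (0.912 to 1.33) and for Col1a2 0.933 (0.809 to 1.08). The intervals of both type I chains include 1, and that of Col3a1 does not.

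The 4 proteoglycan genes encode secreted proteins that bind collagen fibrils and limit their thickness. Dcn, decorin (chr10:97479609-97518143), measured 6.15, 6.19, 11.6 and 7.71 CPM in cKO, against 11.3, 7.23 and 5.28 CPM in WT. Fmod, fibromodulin (chr1:134037254-134048277), measured 11.6, 9.84, 29.2 and 14.3 CPM in cKO, against 28.3, 15.4 and 9.18 CPM in WT. Both genes were level between cKO replicate 3 and WT replicate 1, with a ratio of 1.03 in each case. Lum, lumican (chr10:97565128-97572703), measured 1.69, 1.53, 2.03 and 1.57 CPM in cKO, against 2.08, 0.865 and 0.991 CPM in WT. It varied least within cKO, where the highest library was 1.33 times the lowest, and its 2 lowest libraries were both WT. Lum held only 14 to 34 counts per library, so these values are imprecise. Its highest library exceeded its lowest by 2.41 times with a counting interval of 1.26 to 4.85.

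Ogn, osteoglycin or mimecan (chr13:49608046-49624501), stood apart from the other proteoglycan genes in its level in cKO replicate 3. It measured 3.98, 4.52, 23.7 and 7.96 CPM in cKO, against 11.6, 7.53 and 5.42 CPM in WT. cKO replicate 3 was 2.04 times WT replicate 1 (95% counting interval 1.70 to 2.44) and 5.95 times the lowest library (4.56 to 7.86), the widest range among the 10 genes. Ogn overlaps Cenpp on the opposite strand, and the strand setting of the counting is not given in the sources used here; Cenpp itself held 8 to 22 counts per library, against 66 to 350 for Ogn.

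Igf2 and Aldh1a2 are signalling genes of the meninges. Igf2, insulin-like growth factor 2 (chr7:142650766-142666816, minus strand), was the sparsest gene, with 0.723, 0.665, 1.49 and 1.19 CPM in cKO, against 2.20, 0.865 and 0.726 CPM in WT. That is 10 to 36 counts per library, so its highest library exceeded its lowest by 3.31 times with a counting interval of 1.61 to 7.48. It overlaps Igf2os on the opposite strand, which held 1 to 5 counts per library. On the same strand it overlaps Mir483 and the protein-coding Gm49394, which held 0 counts in every library. How reads shared by overlapping genes were counted is not given in the sources used here. Aldh1a2 (chr9:71215789-71296243), which makes retinoic acid from retinaldehyde, measured 2.05, 3.53, 9.0 and 5.14 CPM in cKO, against 8.81, 2.96 and 2.44 CPM in WT. Its highest library exceeded its lowest by 4.39 times (2.99 to 6.6).

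Slc6a13 (chr6:121300227-121337733) encodes GAT2, a GABA and taurine transporter of meningeal cells and some other border cells. It measured 4.34, 3.59, 7.98 and 5.95 CPM in cKO, against 5.87, 4.08 and 3.5 CPM in WT. cKO replicate 4 was level with WT replicate 1 here, which is why Slc6a13 fell outside the shared top pair. Its ratio of highest to lowest library was 2.28 (1.64 to 3.22).

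**Figure D2:**
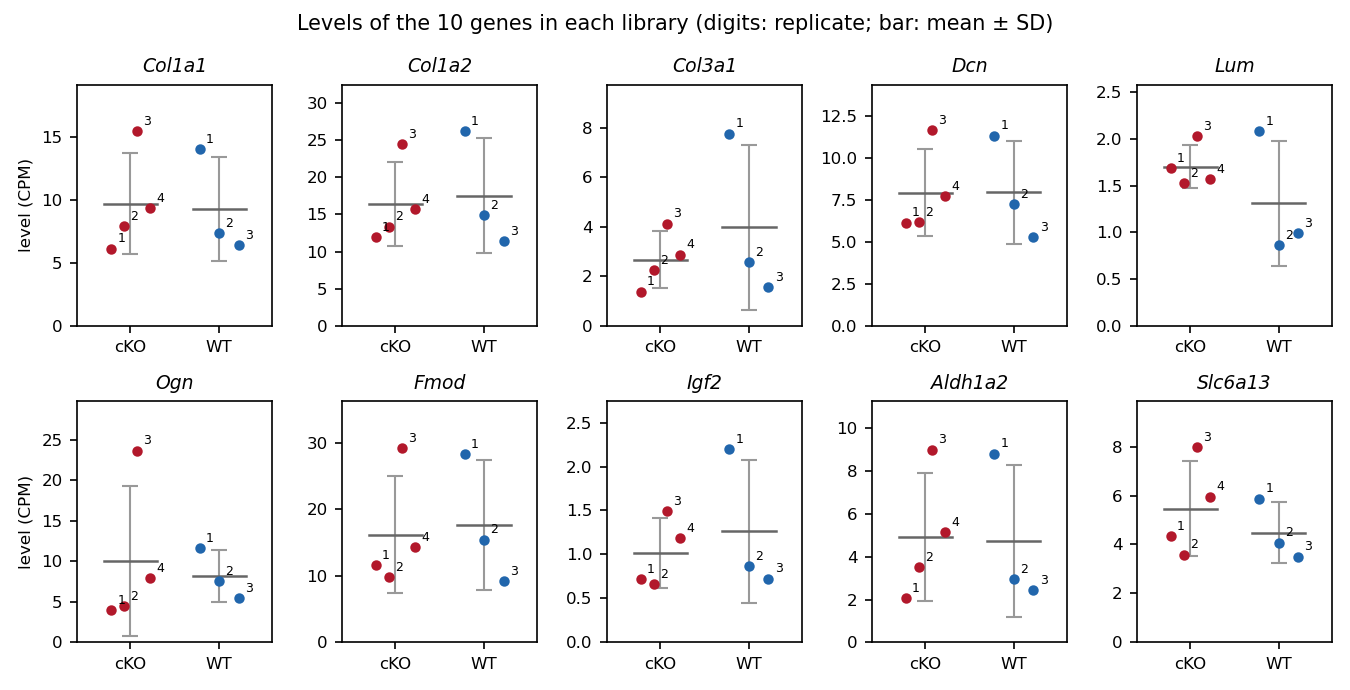
Level in CPM (vertical axes, starting at 0) of each of the 10 genes in the 4 cKO libraries (red) and the 3 WT libraries (blue), with replicate numbers beside the points and mean ± SD as bars. The groups overlap for every gene, and cKO replicate 3 and WT replicate 1 are the top 2 libraries for 9 of the 10.

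Levels between genes can be set side by side only per length, for which the authors' FPKM values served. Over the 7 libraries Fmod averaged 5.08 ± 2.57 FPKM and Ogn 3.6 ± 2.69 FPKM (SD, n = 7), and these 2 genes held the top 2 ranks in every library. Aldh1a2 at 2.14 ± 1.31, Slc6a13 at 1.73 ± 0.569, Col1a1 at 1.45 ± 0.578, Col1a2 at 1.35 ± 0.49 and Dcn at 1.35 ± 0.442 FPKM came next; they traded places between libraries within ranks 3 to 7. Lum at 0.625 ± 0.192, Col3a1 at 0.328 ± 0.225 and Igf2 at 0.196 ± 0.0991 FPKM held ranks 8, 9 and 10 in every library.

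The mixture of the 10 transcripts was not the same in every library. Col1a2 made up 18.97% to 25.03% of the counts of the 10 genes in each library, Fmod 18.4% to 24.2%, Col1a1 11.6% to 14.8% and Dcn 9.01% to 12.3%. Ogn made up 18.3% in cKO replicate 3 (exact 95% binomial interval 16.6% to 20.2%) and 7.96% to 11.8% in the other 6 libraries. Col3a1 made up 6.57% in WT replicate 1 (5.51% to 7.77%) and 2.77% to 4.23% elsewhere. Shares also differed among the other libraries: Aldh1a2 made up 4.1% in cKO replicate 1 (2.86% to 5.68%) and 7.16% in cKO replicate 4 (5.73% to 8.8%), Slc6a13 ran from 4.97% to 8.69%, Lum from 1.35% to 3.38% and Igf2 from 1.15% to 1.86%. With Ogn left out, a choice made after seeing the data, cKO replicate 3 summed to 105 CPM and WT replicate 1 to 107 CPM, so which of the 2 was higher turned on Ogn, while both remained well above the other 5 libraries at 41.5 to 63.8 CPM.

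The genotypes were then compared. No gene of the 10 differed between cKO and WT: 0 of 10 passed an adjusted p of 0.05 in edgeR's quasi-likelihood test, where 0.0% of all tested genes did, and 0 of 10 reached an unadjusted p under 0.05, where 7.14% of all tested genes did (4.22% higher and 2.91% lower in cKO). DESeq2 and limma-voom also called 0 of the 10, and both put 0 of the 10 at an unadjusted p under 0.05. DESeq2 gave no adjusted p for Col3a1, Lum, Igf2, Aldh1a2 and Slc6a13, so it could not call them. The groups overlapped for all 10, while they did not overlap for 7.38% of tested genes. The log2 fold change was positive for 5 genes and negative for 5, beside 51.8% positive over all tested genes, and adjusted p-values ran from 0.801 to 0.996.

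Summed over the 10 genes, cKO averaged 76.1 ± 36.6 CPM (SD, n = 4) and WT 76.4 ± 37.3 CPM (SD, n = 3). Without cKO replicate 3 the cKO mean was 58.4 ± 11.7 CPM (n = 3), and without WT replicate 1 the WT mean was 55.4 ± 11.99 CPM (n = 2). The near-equal means of the full groups thus hold 1 rich library each, and the remaining libraries were also close.

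Among the collagen genes, Col1a1 averaged 9.74 ± 4.06 CPM in cKO and 9.30 ± 4.17 CPM in WT, a log2 fold change of 0.06 ± 0.32 (SE; 95% interval -0.63 to 0.75; edgeR adjusted p = 0.978). Col1a2 averaged 16.4 ± 5.63 CPM in cKO and 17.5 ± 7.75 CPM in WT, a log2 fold change of -0.10 ± 0.28 (-0.72 to 0.51; edgeR adjusted p = 0.947). Col3a1 had the most negative value of the 10, -0.59 ± 0.48 (-1.63 to 0.45; edgeR adjusted p = 0.801), with 2.66 ± 1.15 CPM in cKO and 3.98 ± 3.32 CPM in WT. That value rested on WT replicate 1: without it the log2 fold change was 0.34.

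Of the proteoglycan genes, Dcn averaged 7.92 ± 2.58 CPM in cKO and 7.94 ± 3.08 CPM in WT, with a log2 fold change of -0.01 ± 0.27 (-0.60 to 0.58). Fmod had -0.13 ± 0.38 (-0.96 to 0.71), with 16.2 ± 8.82 CPM in cKO and 17.6 ± 9.73 CPM in WT. Lum had the most positive value, 0.37 ± 0.35 (-0.39 to 1.12; edgeR adjusted p = 0.835), with 1.70 ± 0.228 CPM in cKO and 1.31 ± 0.669 CPM in WT. Ogn averaged 10.03 ± 9.26 CPM in cKO and 8.19 ± 3.16 CPM in WT, a log2 fold change of 0.28 ± 0.52 (-0.84 to 1.41) that was -0.59 without cKO replicate 3.

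Igf2 averaged 1.02 ± 0.392 CPM in cKO and 1.26 ± 0.816 CPM in WT, a log2 fold change of -0.32 ± 0.45 (-1.31 to 0.66). Aldh1a2 averaged 4.93 ± 2.99 CPM in cKO and 4.74 ± 3.54 CPM in WT, a log2 fold change of 0.04 ± 0.49 (-1.02 to 1.1). Slc6a13 averaged 5.47 ± 1.94 CPM in cKO and 4.48 ± 1.24 CPM in WT, a log2 fold change of 0.28 ± 0.28 (-0.32 to 0.88). The intervals of Col3a1, Ogn, Igf2 and Aldh1a2 each reach past 1 or -1 on the log2 scale; a missed threshold does not show that the genotypes are alike.

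For every gene the ratio of highest to lowest library within each group was larger than the ratio of group means. A range over single libraries and a ratio of means are unlike measures. The share of all tested genes for which this holds is not given here, so the comparison only describes the 10 genes. The ratio of group means, cKO over WT, lay between 0.668 and 1.3, whereas the highest library exceeded the lowest by 1.33 to 5.95 times within cKO and by 1.68 to 4.9 times within WT. The biological coefficient of variation that edgeR fitted was 0.241 to 0.458 for the 10 genes (median 0.318), against a median of 0.127 over all tested genes.

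With cKO replicate 3 and WT replicate 1 both left out, 3 cKO and 2 WT libraries remained and the intervals narrowed for most of the genes. Those 2 libraries had been picked as the richest in these same genes, so narrower intervals follow from that choice. The log2 fold change was then positive for 8 of the 10 genes, beside 50.8% of 16562 tested genes, with a median of 0.10; 0 of 10 reached an unadjusted p under 0.05, which 6.24% of genes did. Lum stood highest at 0.78 (edgeR adjusted p = 0.827), and Ogn lowest at -0.24. Leaving out cKO replicate 1 and WT replicate 1, the libraries with 0 counts of the Y-linked Ddx3y and with 19151 and 15217 counts of Xist, removed a low cKO and a high WT library. It gave positive values for all 10 genes with a median of 0.59. Unadjusted edgeR p-values were 0.0169 for Aldh1a2, 0.0412 for Col1a1 and 0.0499 for Lum, all with an edgeR adjusted p of 0.933. The shares of all tested genes that were positive or under 0.05 in this fit are not given here. These counts thus only describe the 10 genes. Of 16485 genes tested in this fit, 0 were called. The sign of the fold change therefore depended on which libraries entered for 8 of the 10 genes; Lum and Slc6a13 stayed positive whichever single library was left out.

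**Figure D3:**
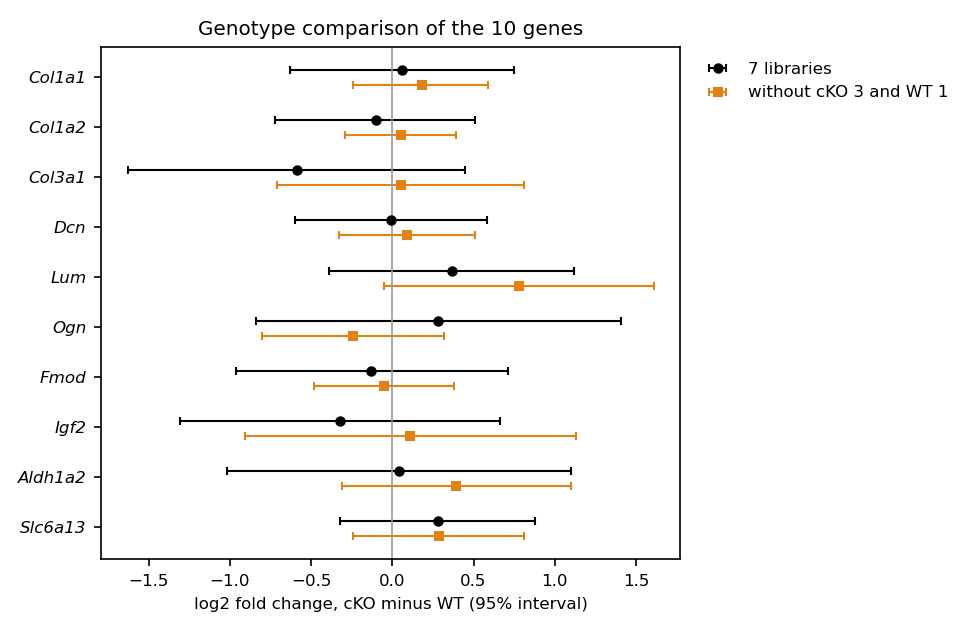
Log2 fold change, cKO minus WT (horizontal axis), of each of the 10 genes with its 95% interval, from all 7 libraries (black circles) and without cKO replicate 3 and WT replicate 1 (orange squares). Every interval includes 0 in both fits, and most are narrower without the 2 libraries, which were picked as the richest in these same genes.

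Genes related by role were described from lists. Of 286 genes listed, 285 were found and 241 tested, and 0 were called between the genotypes. Other meningeal fibroblast and arachnoid markers shared part of the library pattern of the 10 genes. This list of 30 tested genes deviated by -0.29, -0.34, 0.52 and 0.08 (log2) in cKO replicates 1 to 4 and by 0.24, -0.02 and -0.19 in WT replicates 1 to 3, and cKO replicate 3 and WT replicate 1 were the top 2 libraries for 14 of the 30, beside 6.42% of all tested genes. Among the 14, Slc13a4, a sulfate transporter, measured 3.13, 3.72, 14.6 and 9.34 CPM in cKO, against 11.02, 6.18 and 4.29 CPM in WT, and Tbx18, a transcription factor of mural and meningeal cells, measured 2.11, 1.6, 3.99 and 2.76 CPM in cKO, against 3.55, 2.66 and 2.91 CPM in WT. Both were picked after their values were seen. The 2 most abundant genes of the list did not follow: Cldn11, a tight junction gene that oligodendrocytes also express, was lowest in those same 2 libraries with 99.2 CPM (cKO replicate 3) and 105 CPM (WT replicate 1), and Gjb6, a connexin that astrocytes also express, measured 64.5 to 86.8 CPM in cKO and 61.3 to 95.2 CPM in WT. Slc47a1, picked after its values were seen, measured 6.36 CPM in cKO replicate 3 and 0.266 to 1.69 CPM in the other 6 libraries. Between genotypes 18 genes of the list had positive and 12 negative values, with a median log2 fold change of 0.03.

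Matrix genes outside the 10 divided by kind. Among 18 tested elastic fibre and matricellular genes, 10 had cKO replicate 3 and WT replicate 1 as their top 2 libraries; Fn1, fibronectin, measured 73.4, 67.0, 117 and 75.5 CPM in cKO, against 105, 86.1 and 77.3 CPM in WT, and Islr measured 6.87, 6.32, 21.1 and 10.7 CPM in cKO, against 13.5, 12.2 and 9.58 CPM in WT. Of 7 other small leucine-rich proteoglycan genes tested, 2 had that top pair, one of them Bgn, biglycan, with 26.4 CPM in cKO replicate 3, 19 CPM in WT replicate 1 and 12.6 to 14.0 CPM elsewhere. Prelp, the other abundant gene of that list, measured 17 to 22.7 CPM in cKO and 16.1 to 24.7 CPM in WT. Of 12 other fibrillar collagen and collagen partner genes, only Col6a2 had the top pair; Col6a1 measured 21.4 to 26.1 CPM in cKO and 22.1 to 27.0 CPM in WT, and Col12a1 measured 11.7 to 18.8 CPM in cKO and 15.01 to 17.9 CPM in WT. Of 17 basement membrane genes 3 had it; Agrn, agrin, measured 114 to 164 CPM in cKO and 144 to 163 CPM in WT, and Lamc1, a laminin chain, measured 48.6 to 59.2 CPM in cKO and 42.7 to 48.5 CPM in WT.

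The genes that fold, modify and cross-link collagen held 4 of 19 tested members at an unadjusted p under 0.05, all higher in cKO, although 0 passed adjustment; 4.22% of all tested genes were higher in cKO at that level. P4ha1, a subunit of the prolyl hydroxylase of collagen chains, measured 63.4, 80.4, 85.5 and 85.3 CPM in cKO, against 51.2, 64.1 and 60.0 CPM in WT, a log2 fold change of 0.43 ± 0.12 (edgeR adjusted p = 0.679). Serpinh1, the collagen chaperone HSP47, measured 13.1, 16.4, 23.3 and 23.4 CPM in cKO, against 14.7, 11.2 and 12.5 CPM in WT, a log2 fold change of 0.57 ± 0.20 (edgeR adjusted p = 0.679), and Plod2 had 0.58 ± 0.19 and Plod1 0.31 ± 0.14. The groups overlapped for P4ha1, Serpinh1 and Plod1 and not for Plod2. Over the whole list 12 genes had positive and 7 negative values, with a median log2 fold change of 0.12, or 0.04 with the replicate block. The type I and type III chains that these proteins act on had log2 fold changes of 0.06, -0.10 and -0.59. Sparc, a collagen-binding protein and the most abundant gene of the list, measured 119 to 143 CPM in cKO and 107 to 151 CPM in WT, highest in WT replicate 1 and next in cKO replicate 3.

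The partners of the 3 signalling and transport genes were read against the same top pair, which Igf2 and Aldh1a2 have, Slc6a13 lacks and 6.42% of all tested genes show. Of 15 tested retinoic acid pathway genes, 0 had cKO replicate 3 and WT replicate 1 as the top pair; Aldh1a1 measured 37.2 to 58.8 CPM in cKO and 37.8 to 43.7 CPM in WT, and the median log2 fold change was -0.07. Of 12 insulin-like growth factor genes, 1 had it, Igf2r; Igf1r measured 130 to 140 CPM in cKO and 133 to 147 CPM in WT. Of 5 GABA, betaine and taurine transporter genes, 0 had it, and the median log2 fold change was 0.05.

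Lists of other cell types that share the surface and vessels of the cortex were set beside these levels. Border macrophages, the resident macrophages of meninges and perivascular spaces, had 3 of 7 tested genes with the same top pair: Mrc1, the mannose receptor, measured 5.12, 5.79, 10.6 and 7.33 CPM in cKO, against 10.1, 5.62 and 4.89 CPM in WT. As a list the border macrophage genes deviated by -0.21, -0.22, 0.30 and 0.03 (log2) in cKO replicates 1 to 4 and by 0.43, 0.04 and -0.37 in WT replicates 1 to 3, and so were high in the same 2 libraries as the 10 genes. Brain endothelium summed to 533 to 607 CPM in cKO and 502 to 629 CPM in WT, and pericytes and smooth muscle to 298 to 341 CPM in cKO and 290 to 360 CPM in WT. The same top pair was seen in 4 of 12 endothelial and 2 of 11 mural genes tested, beside 6.42% of all tested genes. The endothelial and mural lists deviated by 0.02 and -0.10 (log2) in cKO replicate 3, where the 10 genes stood at 0.78, and 0.15 and 0.32 in WT replicate 1, where they stood at 0.76. Bone and skeletal muscle genes summed to 17.8 to 20.1 CPM in cKO and 17.9 to 20.0 CPM in WT. Myelinating oligodendrocyte genes ran low in the rich libraries, at -0.40 in cKO replicate 3 and -0.64 in WT replicate 1, beside -0.08 to 0.51 elsewhere. The part of these cell types in the levels of the 10 genes was not tested.

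**Figure D4:**
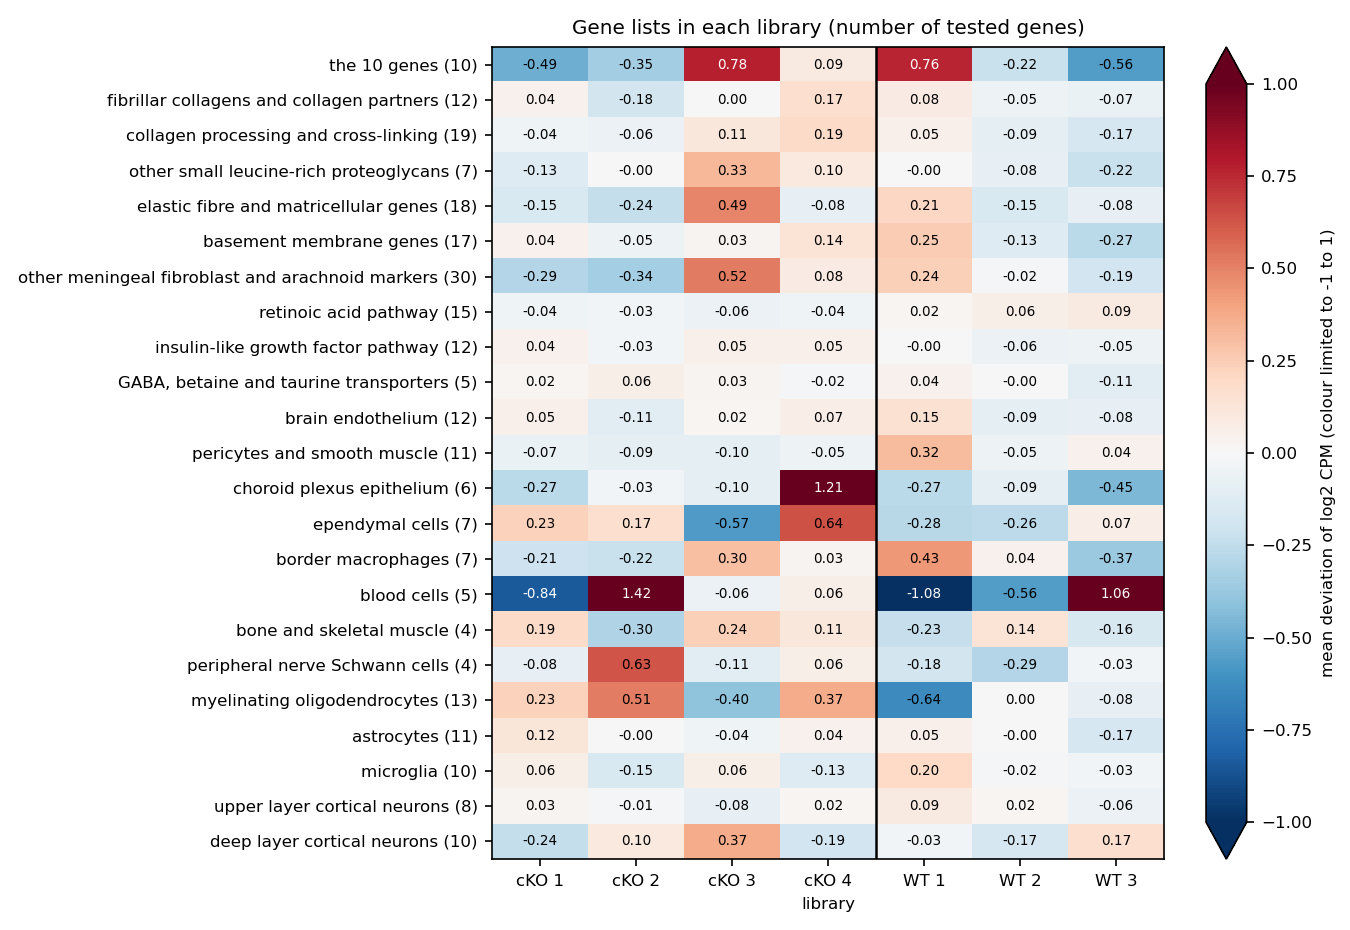
Mean deviation of log2 CPM from each gene's own mean (colour and printed value) for the 10 genes and for 22 lists (rows, with the number of tested genes) in the 4 cKO and 3 WT libraries (columns). The row of the 10 genes is highest in cKO replicate 3 (0.78) and WT replicate 1 (0.76), and the row of other meningeal markers is highest in the same 2 libraries (0.52 and 0.24).

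Finally, genes were ranked by how closely their log2 CPM followed the mean pattern of the 10 over the 7 libraries, as the mean absolute difference between the 2 patterns. The median over 16298 other tested genes was 0.478, and the 10 genes themselves lay between 0.0727 (Col1a1) and 0.321 (Lum) from their mean. The 12 closest other genes were Slc22a6 at 0.0827, Mrc1, Fgfbp1, Gypc, Colec12, Aebp1, Serping1, Aox3, Tac2, Slc6a20a, Wnt6 and Ptgds, the last at 0.175. Slc22a6, an organic anion transporter, measured 3.01, 3.59, 7.71 and 5.20 CPM in cKO, against 7.04, 4.08 and 3.37 CPM in WT. Ptgds, the prostaglandin D2 synthase of the arachnoid, also made by oligodendrocytes, was the most abundant of the 12, with 218, 180, 373 and 301 CPM in cKO, against 410, 247 and 202 CPM in WT. Of the 12, 2 were in the list of other meningeal markers and 1 in that of border macrophages. The 6 genes closest to the inverted pattern were Gm26631, Gm44830, Ankrd61, Gm45854, Depp1 and Adgrf4; Depp1 measured 4.40, 3.99, 1.89 and 3.63 CPM in cKO, against 1.53, 3.03 and 4.16 CPM in WT. Of these 6, 3 were protein coding and 0 were in any list. This ranking used all 7 libraries and carries no test.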

How the data were processed

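RNA from mouse motor cortex was sequenced in 4 cKO and 3 WT libraries. Per the labels' protocols, cDNA was primed at random on fragmented mRNA, and no strand marking is described. The authors deposited raw gene counts (featureCounts 1.5.0-p3, mm10, DESeq2 1.20.0, per the submitters' processing notes) and FPKM values for 54532 genes. No aligner, annotation release, strand setting or treatment of multimapping reads is given in the sources used here, so counts of overlapping or antisense genes are uncertain. Groups came from the genotype labels; p-values reflect only how these libraries spread, which may be technical. There were 0 unnamed rows.

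From the deposited counts, TMM factors, the filterByExpr filter (16308 genes kept) and quasi-likelihood F tests of genotype, its only term, were computed with edgeR 4.0.16 in R 4.3.3. Benjamini-Hochberg adjustment ran over all tested genes with a threshold of 0.05. The fit was tested on simulated counts. Log2 CPM for patterns used a prior count of 2, and intervals are 95%, exact for single counts and shares. The deposited FPKM values were used only to set levels of different genes side by side and as an alternative. Alternatives were limma-voom (limma 3.58.1), DESeq2 1.42.0, other size factors and filters, log2(FPKM + 1) and log2(FPKM + 0.1), a replicate block and leaving out libraries. Promoter windows are from RefSeq (GRCm38.p6); 7 of the 10 genes had an entry, and 4 windows met the rule on starts. SciPy 1.17.1 and matplotlib 3.10.9 gave intervals and figures.

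The 10 genes and the 22 other lists were chosen with earlier results of these data known. The genes named are all 10, from each list those called or, with 0 called, the 2 most abundant (2 such genes are not reported here), and from the ranking of similar patterns 12 alike and 6 opposite; genes outside this are named as picked after their values were seen or for their unadjusted p. Same-numbered cKO and WT libraries deviated together with correlations of 0.11, 0.128 and 0.122, all above the 0.1 set for treating the numbers as pairs, although cKO replicate 4 with WT replicate 2 reached 0.21 and the labels state no pairing.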

Additional observations from a re-analysis of the deposited data

Results flagged for a closer look

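Of 107 values checked within the 4 cKO libraries, 14 had 1 library far from the other 3 by Dixon's criterion. Chance gives this in about 1 of 20 groups, but the 14 cannot be set against that rate, since 9 of them are genes picked for the pattern of cKO replicate 3 (the 6 olfactory bulb genes, Wnt6, Gm44830 and Gm45854). The WT group of 3 was not checked. None of the 10 matrix genes was among them. In cKO replicate 3, Bgn was high at 26.4 CPM, Fn1 at 117 CPM and Wnt6 at 2.44 CPM, while Gm44830 at 0.609 CPM, Gm45854 at 0.744 CPM and Tia1 at 72.7 CPM were low. In the same library 6 genes known from the olfactory bulb, picked after their values were seen, were high: Cdhr1 at 103 CPM, Calb2 at 55.7 CPM, Th at 19.8 CPM, Doc2g at 11.3 CPM, Omp at 4.80 CPM and S100a5 at 4.46 CPM. Ttr, transthyretin of the choroid plexus, stood at 154 CPM in cKO replicate 4 and at 7.1 to 15.01 CPM in the other 6 libraries. Pmp22 was high at 28.4 CPM in cKO replicate 2. The library that was richest in the matrix genes thus differed in other genes as well, and the part of that in the matrix levels was not tested.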

How the results depend on the processing

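None of the 10 genes was called under any of the 22 other settings in which calls were counted. In DESeq2, Col3a1, Lum, Igf2, Aldh1a2 and Slc6a13 had no adjusted p and could not be called. Over all genes, 0 were called in the main comparison, where 1164 had an unadjusted p under 0.05; limma-voom called 0, DESeq2 called 6, log2(FPKM + 1) without a filter 3, the replicate block 2, leaving out WT replicate 1 and cKO replicate 3 together 1, and edgeR without a filter 198, of which 15 were list genes and 187 also pass the default filter. Leaving out 1 library gave 0 to 3. The median log2 fold change of the 10 genes was 0.02, and ran from -0.40 (without cKO replicate 3) to 0.44 (without WT replicate 1). Directions turned for Ogn in limma-voom (-0.06), log2(FPKM + 0.1) (-0.03), with the replicate block (-0.02) and without WT replicate 1 and cKO replicate 3 (-0.24), and for Dcn in log2(FPKM + 0.1) (0.01). Without those 2 libraries Col1a2 (0.05), Col3a1 (0.05), Dcn (0.09) and Igf2 (0.11) turned too, and without WT replicate 1 and cKO replicate 1 so did Col1a2 (0.43), Col3a1 (0.56), Dcn (0.44), Fmod (0.52) and Igf2 (0.48). Leaving out 1 library gave -0.26 to 0.49 for Col1a1, -0.37 to 0.31 for Col1a2, -0.97 to 0.34 for Col3a1, -0.26 to 0.33 for Dcn, -0.59 to 0.62 for Ogn, -0.58 to 0.39 for Fmod, -0.59 to 0.34 for Igf2 and -0.43 to 0.85 for Aldh1a2; Lum and Slc6a13 were positive throughout. Summed over the authors' FPKM values the highest library exceeded the lowest by 3.06 times, against 2.75 in CPM and 2.53 to 2.76 under the others. The mean FPKM filter of 0.5 kept 8 of the 10 genes. The cause of these differences was not tested. Igf2 held only 10 to 36 and Lum only 14 to 34 counts per library, so the values of both are imprecise. The part of the overlap of Igf2 with Gm49394 on the same strand in the Igf2 count was not tested.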

Other observations

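Other cell type lists differed between libraries in ways of their own. Myelinating oligodendrocyte genes had 13 of 13 tested genes with a positive log2 fold change (median 0.42), beside 51.8% of all tested genes; 5 of the 13 had an unadjusted p under 0.05, beside 7.14% of all tested genes, and 0 were called, as for 0.0% of them. The median was 0.23 without WT replicate 1 and 0.28 with the replicate block. Mbp measured 2727, 2993, 1391 and 2659 CPM in cKO, against 1591, 2205 and 2031 CPM in WT. Choroid plexus genes summed to 275 to 548 CPM in cKO and 250 to 296 CPM in WT, and Enpp2, which oligodendrocytes also express, measured 255 to 367 CPM in cKO and 234 to 271 CPM in WT. Ependymal genes summed to 8.05 to 19.7 CPM in cKO and 10.3 to 12.5 CPM in WT; Foxj1 measured 3.18 to 7.83 CPM in cKO and 3.92 to 5.09 CPM in WT.

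Blood cell genes varied most among the 22 lists, summing to 19.7 to 89.3 CPM in cKO and 13.8 to 70.9 CPM in WT: Hbb-bs measured 42.3 CPM (cKO replicate 2) and 37.6 CPM (WT replicate 3), against 7.04 to 16.5 CPM elsewhere, and Hba-a1 36.6 and 25.4 CPM in the same 2 libraries. These are not the libraries that were rich in the matrix genes. Schwann cell genes summed to 60.9 to 83.9 CPM in cKO and 56.5 to 60.2 CPM in WT, with Pmp2 at 0 in every library. Astrocyte genes summed to 5738 to 6562 CPM in cKO and 5709 to 6406 CPM in WT, and microglial genes to 352 to 391 CPM in cKO and 364 to 438 CPM in WT. Upper layer neuron genes summed to 865 to 944 CPM in cKO and 895 to 931 CPM in WT, and deep layer genes to 358 to 528 CPM in cKO and 382 to 482 CPM in WT.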
